A study of Homo sapiens with 4 samples.

Results

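The 36 genes described here encode the antioxidant enzymes of the cell, the enzymes that make and use glutathione, and the NRF2 regulator with its inhibitor KEAP1. They were chosen by gene symbol from a fixed list, and all 36 were among the 21372 genes of the deposited table and passed the filter on low counts. RNA recovered with an immunoprecipitate of P5CS (P5CS IP, 2 libraries) was compared with input RNA (2 libraries) in NCI-H1299 cells, a line established from a human lung carcinoma, with no treatment named in the labels. P5CS is the product of ALDH18A1 and makes the precursor of proline in mitochondria. The comparison asks which RNAs come down with it. In RNA immunoprecipitation sequencing an antibody pulls down a protein together with attached RNA, which is sequenced beside the starting RNA. No IgG or mock immunoprecipitate was analysed here. A gene "lower in the P5CS IP" had a lower level in the IP RNA than in the input RNA after TMM scaling of the libraries. That level is relative to most other genes and is not a plain share of the RNA, and nothing more is measured. The input is bulk RNA, so for its levels fewer cells holding a transcript and less of it per cell cannot be told apart. The labels do not tell whether replicate libraries are separate cultures, and the p-values rest on the spread of these 4 libraries alone, which could be technical.

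NRF2, the product of NFE2L2, is a transcription factor that KEAP1 holds in the cytoplasm and marks for destruction through a CUL3 ubiquitin ligase. Oxidants and electrophiles modify KEAP1, after which NRF2 enters the nucleus, pairs with a small MAF protein and binds antioxidant response elements in the promoters of detoxifying genes. Glutathione is made by glutamate-cysteine ligase and glutathione synthetase, used by peroxidases and transferases, and returned to its reduced form by glutathione reductase. Thioredoxins and peroxiredoxins run a parallel system that also draws its electrons from NADPH.

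Matches to the core of the antioxidant response element are shown because they are the means by which NRF2 reaches its targets. The motif TGACNNNGC was searched on both strands in the 250 bases before each start that the promoter table lists for a gene (RefSeq, GRCh38.p14). A gene can have more than 1 such start, and a start can lie inside the span of the gene, as for the stretches of KEAP1 and GSTO1 below, which precede internal starts. A promoter was matched for 29 members, of which 5 held the motif (17.2%), against 15.8% of the tested genes with a promoter, so the share among the members was near that of all genes. Capitals mark the motif or its reverse complement, each sequence is read 5′ to 3′ on the strand of its gene, and a match is a description of the letters and not a measured binding site.
GCLM: tacgatttctGCTTAGTCAttgtcttcca
KEAP1: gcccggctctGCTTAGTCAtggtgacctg
GSTP1: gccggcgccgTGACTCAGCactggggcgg
TXNRD1: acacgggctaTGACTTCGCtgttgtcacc
GSTO1: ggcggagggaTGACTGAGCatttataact
The stretches lie at chr1:93909446-93909474 (minus strand), chr19:10502784-10502812 (minus), chr11:67583736-67583764 (plus), chr12:104215670-104215698 (plus) and chr10:104254656-104254684 (plus). Of these 5 genes, GCLM and KEAP1 were higher in the P5CS IP, GSTP1 and GSTO1 were lower, and TXNRD1 did not pass. Only 1 match per gene is shown, and KEAP1, GSTO1 and TXNRD1 each held another. Bases more than 250 before a start were not searched.

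The libraries held 31489455 to 34730866 counts in the P5CS IP and 40911717 to 46339235 in the input, and most low counts were even, as when each mate of a pair is counted. The keratin genes KRT8 and KRT18 and the mesenchymal gene VIM were abundant in all 4 libraries, at 178 CPM (counts scaled to a common library size) or more. Of 6 epithelial markers 5 were analysed, and the keratin genes KRT7 (0.261 to 1.17 CPM) and KRT19 (0.798 to 2.39 CPM) were scarce. The mesenchymal genes CDH2 (59.6 to 92.8 CPM) and FN1 (75.8 to 156 CPM) were present in all libraries. The epithelial gene EPCAM had 0 counts in both P5CS IP libraries and 8 and 6 in the inputs. Of 6 lung epithelial markers only NKX2-1 was analysed, at 20 and 52 counts in the P5CS IP and 8 and 0 in the input. The 5 blood markers analysed summed to 1.88 and 2.83 CPM in the P5CS IP and 1.33 and 1.58 CPM in the input. The mRNA of P5CS itself, ALDH18A1, was at 90.0 and 103 CPM in the P5CS IP and 113 and 107 CPM in the input, and did not pass (log2 fold change -0.19, SE 0.0961, adjusted p = 0.125). Without P5CS IP library 2 its value was -0.26 (adjusted p = 0.0474), and with total-count scaling it was 0.07.

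Most mRNAs of the antioxidant system made up a smaller share of the P5CS IP than of the input. Of 36 members, 25 were lower, 3 were higher and 8 missed the threshold of an adjusted p under 0.05 (edgeR's quasi-likelihood test, adjusted by Benjamini-Hochberg over all 17304 genes tested). Over all tested genes 25.6% were lower and 25.4% higher, 51.0% in all. The median log2 fold change of the members was -0.86, beside -0.01 for all tested genes. The 3 higher genes were GCLC, GCLM and KEAP1, the ligase that starts glutathione synthesis in its 2 subunits and the inhibitor of NRF2. A difference of at least 2-fold was found for 16 of the lower members. The share of all tested genes lower by that much was not computed, so this number only describes the members. In 27 members both P5CS IP libraries lay below both inputs, in 8 both lay above, and in OSGIN1 alone the groups overlapped, where over all tested genes 38.2% lay below and 37.7% above. Together the members took 0.117% and 0.111% of the counts of the P5CS IP and 0.177% and 0.176% of those of the input. All tested genes with gene models under 2000 nt took 12.7% and 12.5% of the P5CS IP and 46.3% and 47.1% of the input. Members of that length took 0.0540% and 0.0506% of the P5CS IP and 0.110% and 0.111% of the input. Longer members took 0.0632% and 0.0604% of the P5CS IP and 0.0667% and 0.0651% of the input, where all longer tested genes took 87.2% and 87.5%, and 53.6% and 52.8%. With total-count scaling, which compares plain shares of the counts, 20 members were lower and 3 higher.

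**Figure D1:**
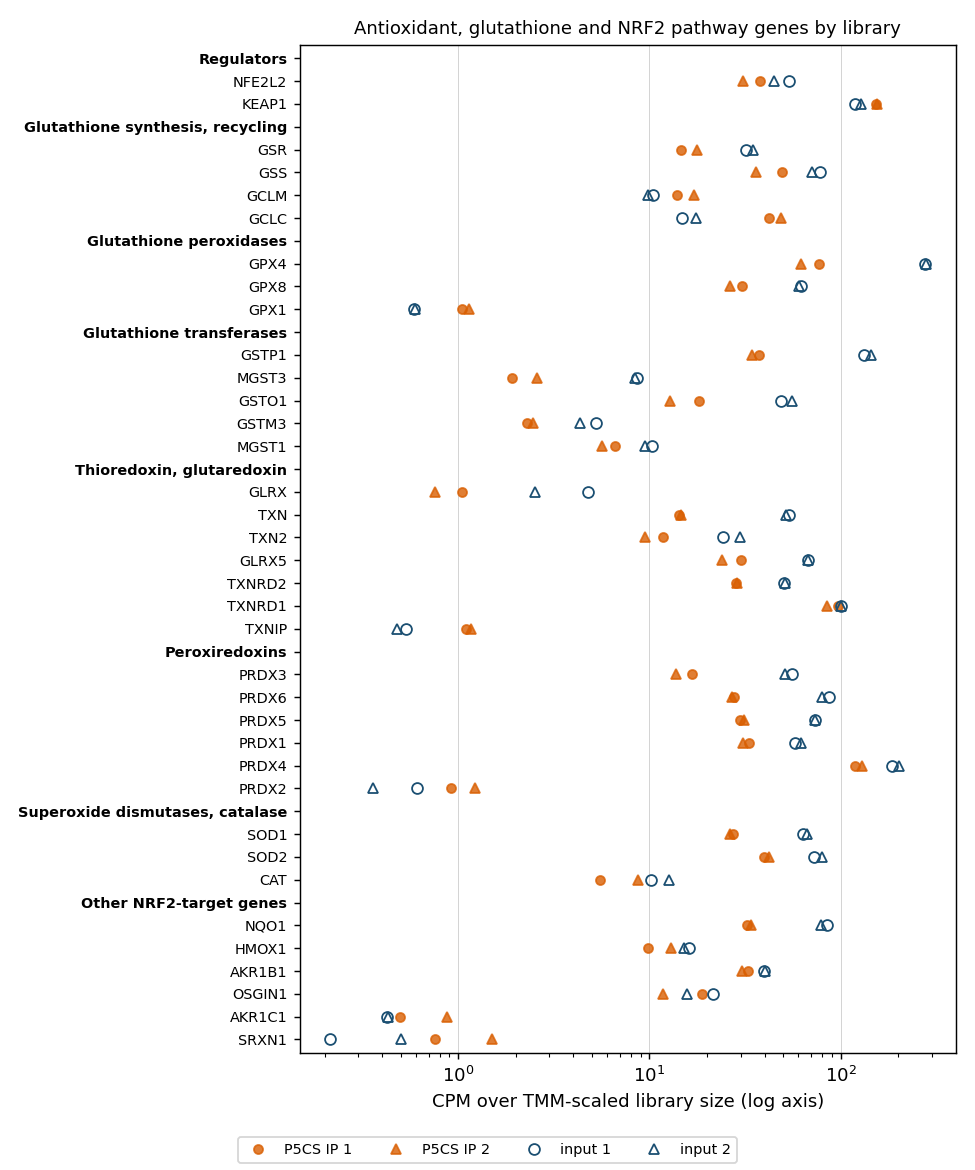
Level of each of the 36 genes in each library, in CPM over TMM-scaled library sizes on a log axis, with filled symbols for the 2 P5CS IP libraries and open symbols for the 2 input libraries. In 27 genes both filled symbols lie left of both open ones; GCLC, GCLM, KEAP1 and 5 genes near 1 CPM or below lie the other way.

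The members had shorter gene models than the tested genes (median 1990 nt against 3425 nt), and the share of lower genes was larger among short genes over all genes tested. Gene model lengths ran from 737 nt for TXN to 17664 nt for SOD2. Of 18 members under 2000 nt, 15 were lower, where 35.0% of all tested genes of that length were lower. Of 18 longer members, 10 were lower, and 3 were higher, where 22.3% of the longer tested genes were lower and 30.8% higher. Of all tested genes with a mean of at least 10 CPM, 35.8% were lower and 38.7% higher, and of the 26 members at that level 20 were lower and 3 higher. Among tested genes under 2000 nt with a mean of at least 10 CPM, 73.6% were lower, and 13 of the 14 members of that kind were. The Spearman correlation between length and log2 fold change was 0.44 across the 36 members and 0.27 across all tested genes. That between the mean input FPKM (a count per length and library total) and the log2 fold change was -0.6 across the members. The latter is partly built in, because the input level also enters the fold change and FPKM also holds length. It was not computed for all tested genes. Genes share libraries and are not independent replicates, so these correlations are descriptions. With the length trend of all genes removed, 22 members were lower and 2 higher, where 25.7% of all tested genes were lower and 23.6% higher, 49.3% in all. The median of the members was then -0.74.

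**Figure D2:**
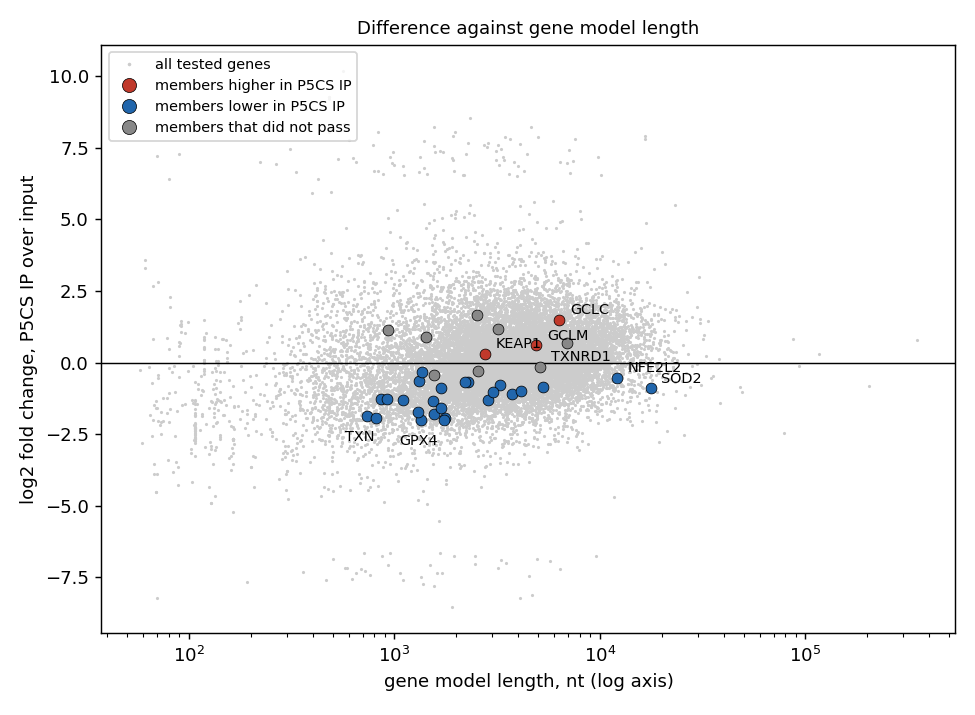
Log2 fold change of P5CS IP over input against gene model length (log axis) for all tested genes in grey and the 36 members in colour by call. The lower members include both the shortest, TXN at 737 nt, and the longest, SOD2 at 17664 nt, and the 3 higher ones have models of 2766 nt (KEAP1), 4910 nt (GCLM) and 6351 nt (GCLC).

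The transcripts of NRF2 and of its inhibitor differed in opposite directions. NFE2L2 (chromosome 2, 177230303 to 177264727, GRCh38.p14) stood at 37.6 and 30.7 CPM in the P5CS IP and at 53.6 and 45.0 CPM in the input. Both IP libraries lay below both inputs, and the gene was lower (log2 fold change -0.53, SE 0.136, adjusted p = 0.00735). KEAP1 (chromosome 19, 10486125 to 10503356), which reads the redox state through reactive cysteines, stood at 152 and 155 CPM in the P5CS IP and 119 and 128 CPM in the input. It was higher by 0.31 (SE 0.0839, adjusted p = 0.00916), a 1.24-fold difference, the smallest among the called members. Neither call held without input library 1 (NFE2L2 -0.40, adjusted p = 0.0600, and KEAP1 0.26, adjusted p = 0.121), and that of NFE2L2 was also lost with total-count scaling (-0.26, adjusted p = 0.146). With the length trend removed NFE2L2, with a 12145 nt gene model, stood at -1.05 and KEAP1 at 0.38, and both passed.

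Within glutathione synthesis, both transcripts of the first step were higher in the P5CS IP and that of the second was lower. GCLC (chromosome 6, 53497341 to 53545101), the catalytic subunit of glutamate-cysteine ligase, stood at 42.3 and 48.8 CPM in the P5CS IP and at 14.8 and 17.6 CPM in the input. Both IP libraries were more than 2-fold above both inputs, and GCLC had the highest fold among the called members (log2 fold change 1.49, SE 0.142, adjusted p = 6.82e-06, 2.81-fold). GCLM (chromosome 1, 93885199 to 93909430), the modifier subunit that raises the affinity of the ligase, stood at 14.0 and 17.0 CPM in the P5CS IP and 10.4 and 9.79 CPM in the input. It was higher by 0.61 (SE 0.183, adjusted p = 0.0159), a call lost without P5CS IP library 2 (0.50, adjusted p = 0.0982), without input library 2 (0.57, adjusted p = 0.0584) and with the length trend removed (0.44, adjusted p = 0.0678).

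GSS, glutathione synthetase, which adds glycine in the second step, stood at 49.1 and 35.9 CPM in the P5CS IP and 77.9 and 70.5 CPM in the input. It was lower by a log2 fold change of -0.80 (SE 0.141). GSR, the reductase that regenerates glutathione with NADPH, stood at 14.7 and 17.8 CPM in the P5CS IP and 31.9 and 34.9 CPM in the input (-1.04, SE 0.148). The P5CS IP libraries lay below the inputs for both enzymes, and the calls of GCLC, GSS and GSR held under all 11 alternatives.

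The enzymes that spend glutathione were lower wherever they were well measured. GPX4 (chromosome 19, 1103994 to 1106779), the selenoprotein that reduces lipid peroxides in membranes, stood at 76.8 and 62.1 CPM in the P5CS IP and 277 and 278 CPM in the input. Per length it was the most abundant member in the input, at a mean of 188 FPKM, against 56.5 FPKM in the P5CS IP, and its difference was 4.0-fold (log2 fold change -2.0, SE 0.106, adjusted p = 8.61e-08). GPX8, a peroxidase of the endoplasmic reticulum, stood at 30.6 and 26.3 CPM in the P5CS IP and 61.7 and 60.3 CPM in the input (-1.10, SE 0.116). GPX1, the cytosolic selenoprotein peroxidase, had only 40 and 39 counts in the P5CS IP and 22 and 25 in the input and did not pass (0.88, SE 0.677). A GPX1 pseudogene in the table held 52 and 61 counts in the P5CS IP and 38 and 12 in the input, so reads may be split between the copies and the value of GPX1 is uncertain.

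All 5 transferases, which attach glutathione to electrophiles, were lower, where 25.6% of all tested genes were. Of tested genes under 2000 nt with a mean of at least 10 CPM, as GSTP1 and GSTO1 were, 73.6% were lower. GSTP1 (chromosome 11, 67583812 to 67586653), the pi-class enzyme, stood at 37.5 and 34.2 CPM in the P5CS IP and 133 and 144 CPM in the input, a 3.87-fold difference (log2 fold change -1.95, SE 0.0996, adjusted p = 6.52e-08). GSTO1, of the omega class, was at 18.2 and 12.8 CPM in the P5CS IP and 48.7 and 55.3 CPM in the input (-1.74, SE 0.169). The microsomal MGST3, a membrane enzyme, was at 1.91 and 2.59 CPM in the P5CS IP and 8.59 and 8.43 CPM in the input (-1.92, SE 0.281). In each of these 3 genes the highest IP library lay under 50% of the lowest input.

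The other transferases were scarcer and their calls less firm. MGST1, a microsomal transferase that also has peroxidase activity, was at 6.64 and 5.65 CPM in the P5CS IP and 10.3 and 9.53 CPM in the input (log2 fold change -0.69, SE 0.218, adjusted p = 0.0217). Its call was lost without P5CS IP library 2 (-0.54, adjusted p = 0.130), without input library 1 (-0.63, adjusted p = 0.0738), with total-count scaling (-0.42) and after removal of the length trend (-0.49). GSTM3, of the mu class, was at 2.30 and 2.45 CPM in the P5CS IP and 5.27 and 4.32 CPM in the input (-1.01, SE 0.325, adjusted p = 0.0231), and its call was lost without P5CS IP library 1 (-0.96, adjusted p = 0.0625), without input library 1 (-0.86, adjusted p = 0.118) and with total-count scaling (-0.75). Its relatives GSTM2 (-1.85, SE 0.482) and GSTM4 (-1.04, SE 0.578) are similar in sequence and may share reads with it. GSTM2 passed and GSTM4 did not, and the call of GSTM2 was lost without input library 2 (-1.54, adjusted p = 0.0735).

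**Figure D3:**
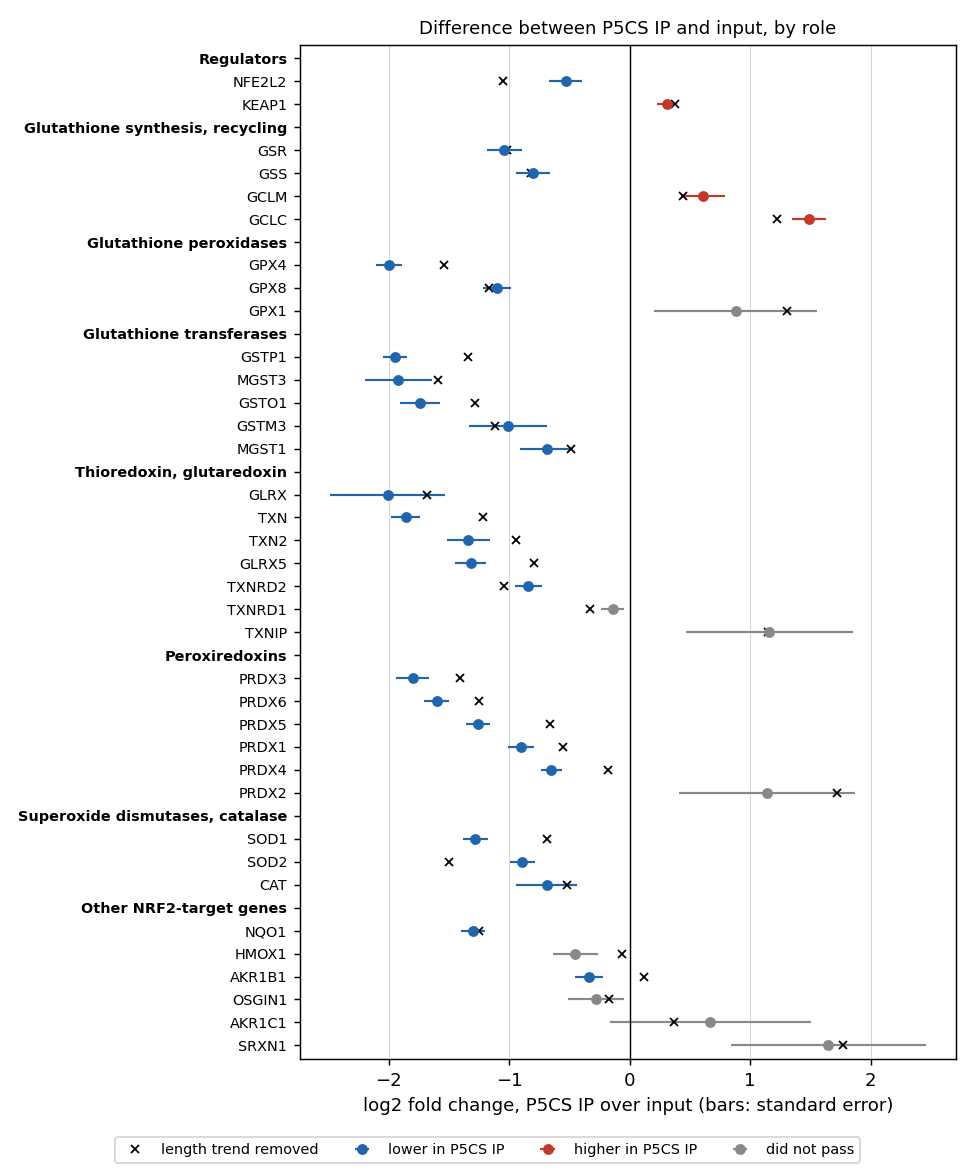
Log2 fold change of P5CS IP over input for the 36 genes by role, with bars of 1 standard error, red for higher, blue for lower and grey for genes that did not pass, and crosses for the value with the length trend of all genes removed. Every called transferase, peroxidase, peroxiredoxin, thioredoxin and dismutase gene lies left of 0, and the called genes right of 0 are GCLC, GCLM and KEAP1.

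In the thioredoxin system, both thioredoxins and the mitochondrial reductase were lower, and the cytosolic reductase was close to the input. TXN (chromosome 9, 110243810 to 110256507), the cytosolic dithiol reductant, stood at 14.3 and 14.6 CPM in the P5CS IP and 53.4 and 51.9 CPM in the input (log2 fold change -1.86, SE 0.121, adjusted p = 4.03e-07). TXN2, its mitochondrial counterpart, stood at 11.7 and 9.50 CPM in the P5CS IP and 24.2 and 29.6 CPM in the input (-1.34, SE 0.177). The 2 reductases are selenoproteins that pass electrons from NADPH to thioredoxin. The mitochondrial TXNRD2 was at 28.4 and 28.6 CPM in the P5CS IP and 50.6 and 51.2 CPM in the input (-0.84, SE 0.110). The cytosolic TXNRD1 was at 96.6 and 85.0 CPM in the P5CS IP and 100.4 and 100.2 CPM in the input, and did not pass (-0.14, SE 0.0952, adjusted p = 0.241). TXNRD1 passed as lower with the length trend removed (-0.33, adjusted p = 0.0138), and its sign turned with total-count scaling (0.12). The gene of TXNRD1 also holds the ribosomal protein pseudogene RPL18AP3, with 1052 and 626 counts in the P5CS IP and 5190 and 5570 in the input, and how reads were divided between them is unknown here.

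TXNIP, the inhibitor that binds reduced thioredoxin, had 42 and 40 counts in the P5CS IP and 20 and 20 in the input and did not pass (1.16, SE 0.691). The glutaredoxins use glutathione in place of thioredoxin reductase. GLRX5, which serves iron-sulphur cluster assembly in mitochondria, stood at 30.1 and 24.0 CPM in the P5CS IP and 67.8 and 67.4 CPM in the input (-1.32, SE 0.126). The cytosolic GLRX was scarce, at 1.05 and 0.757 CPM in the P5CS IP and 4.79 and 2.53 CPM in the input (-2.01, SE 0.480, adjusted p = 0.00475), the lowest log2 fold change of the members. Its call was lost without input library 1 (-1.48, adjusted p = 0.0667).

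Of the 6 peroxiredoxins, thiol peroxidases that remove hydrogen peroxide, 5 were lower, where 25.6% of all tested genes were. The 5 had gene models under 2000 nt and means of at least 10 CPM, and 73.6% of such tested genes were lower. PRDX3, the mitochondrial form, was at 16.7 and 13.7 CPM in the P5CS IP and 55.3 and 50.8 CPM in the input (log2 fold change -1.80, SE 0.137, adjusted p = 1.27e-06). PRDX6, which uses glutathione as its reductant, was at 27.7 and 27.1 CPM in the P5CS IP and 86.9 and 79.8 CPM in the input (-1.60, SE 0.104). PRDX5, found in mitochondria, peroxisomes and cytosol, was at 29.8 and 31.2 CPM in the P5CS IP and 73.4 and 73.1 CPM in the input (-1.26, SE 0.102). These 3 were the lowest of the family.

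PRDX1, the main cytosolic form, was at 33.2 and 30.7 CPM in the P5CS IP and 57.9 and 61.7 CPM in the input (-0.90, SE 0.109). PRDX4, the form of the endoplasmic reticulum, was at 119 and 129 CPM in the P5CS IP and 186 and 202 CPM in the input (-0.65, SE 0.0873). PRDX4 was the third most abundant member per length in the input (135 FPKM, against 104 FPKM in the P5CS IP), and its call was lost with the length trend removed (-0.18, adjusted p = 0.114). PRDX2, the other cytosolic form, had 35 and 42 counts in the P5CS IP and 23 and 15 in the input and did not pass (1.14, SE 0.732). RefSeq names 4 pseudogenes after PRDX2. Whether reads were shared with them was not tested. PRDX1 overlaps MMACHC (-1.70) and PRDX5 overlaps TRMT112 (-1.41), both themselves lower. Whether counting used strand is unknown here, so reads of overlapping genes cannot be told apart.

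The dismutases and catalase, which dispose of superoxide and hydrogen peroxide, were lower, where 25.6% of all tested genes were. Of tested genes under 2000 nt with a mean of at least 10 CPM, as SOD1 was, 73.6% were lower. SOD1 (chromosome 21, 31659693 to 31668931), the copper-zinc enzyme of the cytosol, stood at 27.3 and 26.5 CPM in the P5CS IP and 63.5 and 66.9 CPM in the input (log2 fold change -1.28, SE 0.107, adjusted p = 2.65e-06). SOD2 (chromosome 6, 159669069 to 159762281), the manganese enzyme of mitochondria, was at 39.8 and 42.3 CPM in the P5CS IP and 72.1 and 79.4 CPM in the input (-0.89, SE 0.103). With the length trend removed the order turned, with SOD2 at -1.50 and SOD1 at -0.69. The gene of SOD2 overlaps WTAP on the other strand, whose log2 fold change was -0.00, and over 237 nt also ACAT2, which was lower (-1.61). Reads of overlapping genes cannot be told apart if strand was not used. CAT, the peroxisomal catalase, was at 5.52 and 8.68 CPM in the P5CS IP and 10.2 and 12.7 CPM in the input (-0.69, SE 0.253, adjusted p = 0.0401). Its call was lost without P5CS IP library 1 (-0.40, adjusted p = 0.249), without input library 2 (-0.52, adjusted p = 0.164), with total-count scaling (-0.43) and after removal of the length trend (-0.52).

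Of the other genes known as NRF2 targets, NQO1 was clearly lower and the rest were small or poorly measured differences. NQO1 (chromosome 16, 69709401 to 69726560), the quinone reductase often used to read NRF2 activity, stood at 32.5 and 34.0 CPM in the P5CS IP and 84.9 and 78.8 CPM in the input, a 2.46-fold difference (log2 fold change -1.30, SE 0.102, adjusted p = 1.6e-06). AKR1B1, aldose reductase, was at 32.9 and 30.4 CPM in the P5CS IP and 39.6 and 40.3 CPM in the input (-0.34, SE 0.116, adjusted p = 0.0318). The call of AKR1B1 was lost without P5CS IP library 2 (-0.25, adjusted p = 0.194), without input library 1 (-0.35, adjusted p = 0.0949), without input library 2 (-0.32, adjusted p = 0.134) and with total-count scaling (-0.07), and its sign turned with the length trend removed (0.12).

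HMOX1, which breaks down haem, was at 9.88 and 12.9 CPM in the P5CS IP and 16.0 and 15.1 CPM in the input and did not pass (-0.45, SE 0.188, adjusted p = 0.0684), but passed without P5CS IP library 2 (-0.62, adjusted p = 0.0341). OSGIN1, a growth inhibitor induced by oxidative stress, was at 18.8 and 11.7 CPM in the P5CS IP and 21.4 and 15.7 CPM in the input (-0.28, SE 0.235), passing as lower without P5CS IP library 1 (-0.66, adjusted p = 0.0197) and standing at 0.06 without P5CS IP library 2. The replicates of OSGIN1 spread more widely than the groups differed. SRXN1, sulfiredoxin, which rescues overoxidised peroxiredoxins, had 29 and 52 counts in the P5CS IP and 8 and 21 in the input (1.65, SE 0.808, adjusted p = 0.114).

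AKR1C1, a ketosteroid reductase, had 19 and 30 counts in the P5CS IP and 16 and 18 in the input (0.67, SE 0.833). Its relatives AKR1C2 (4 and 8 counts in the P5CS IP, 22 and 8 in the input) and AKR1C3 (0 and 28, against 4 and 2) are similar in sequence. Both were left out by the filter on low counts, and reads may be split among the 3. TXNIP, PRDX2, GPX1, SRXN1 and AKR1C1 were the 5 members with fewer than 100 counts in the inputs together. In all 5 both P5CS IP libraries lay above both inputs, a pattern that picking genes by low input counts favours. Over all tested genes 37.7% lay above in this way. The differences of the 5 members did not pass.

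Grouped by place in the cell, most members of each compartment were lower. All 5 members counted as mitochondrial (TXN2, TXNRD2, PRDX3, SOD2 and GLRX5) were lower, where 25.6% of all tested genes were. TXN2, PRDX3 and GLRX5 had gene models under 2000 nt and means of at least 10 CPM. Of all tested genes of that kind 73.6% were lower. PRDX5, found in several compartments, was not placed in a group. The log2 fold changes of the 5 mitochondrial members ran from -1.80 to -0.84 around a median of -1.32. Of their 7 cytosolic relatives (TXN, TXNRD1, PRDX1, PRDX2, PRDX6, SOD1 and GLRX), 5 were lower and 2 were not called (median -1.28). All 4 enzymes of the endoplasmic reticulum and membranes (PRDX4, GPX8, MGST1 and MGST3) were lower, with a median of -0.89. The cytosolic TXN, PRDX1, PRDX6 and SOD1, and PRDX4, were also under 2000 nt with means of at least 10 CPM. The shares of 25.6% of all tested genes and 73.6% of that kind apply to these groups too. A difference between compartments was not tested. Of the 4 selenoprotein genes GPX4 and TXNRD2 were lower and GPX1 and TXNRD1 did not pass.

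Of 91 further genes listed for NRF2 control, NRF2 targets, glutathione and thioredoxin chemistry, 87 were in the data and 80 passed the filter on low counts. Of those 80, 39 were lower (48.8%), 16 were higher (20.0%) and 25 were not called, where 25.6% of all tested genes were lower and 25.4% higher. Their median log2 fold change was -0.60. Among 14 genes listed as partners and controllers of NRF2, 6 were higher, 4 lower and 4 not called (median 0.22). That list and its median include NRF1, nuclear respiratory factor 1, which is a separate factor and not an established NRF2 partner. The 6 higher genes, named after their values were seen except where they were among the 4 highest of all lists, encode transcription factors or a coactivator. They were NFE2L3 (1.78, SE 0.173) and NFE2L1 (1.24, SE 0.0731), relatives of NRF2; BACH1 (1.58, SE 0.0939), the repressor that competes with it; MAFK (1.65, SE 0.128) and MAFG (0.80, SE 0.161), small MAF partners; and CREBBP (1.48, SE 0.0760), an acetyltransferase.

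BACH1 stood at 129 and 129.5 CPM in the P5CS IP and 41.4 and 44.9 CPM in the input, and MAFK at 73.8 and 94.1 CPM in the P5CS IP and 26.9 and 26.7 CPM in the input. NFE2L3 stood at 169 and 254 CPM in the P5CS IP and 54.6 and 68.7 CPM in the input, and NFE2L1 at 1148 and 1065 CPM in the P5CS IP and 471 and 463 CPM in the input. The P5CS IP libraries of these 4 genes, which were picked for being called higher, all lay above the inputs. Those of NFE2L2 lay below. Over all tested genes 37.7% lay above and 38.2% below. The third small MAF gene, MAFF, did not pass (0.32, SE 0.188). The 4 lower genes of this list were RBX1 (-2.10, SE 0.301) and BTRC (-1.10, SE 0.205), parts of ubiquitin ligases, PGAM5 (-1.17, SE 0.107), a mitochondrial phosphatase that binds KEAP1, and DPP3 (-0.45, SE 0.106), a peptidase that binds KEAP1. DPP3 lost its call with total-count scaling (-0.18). CUL3, the ligase scaffold (0.11, SE 0.0987), SQSTM1, the autophagy receptor that traps KEAP1 (-0.17, SE 0.0702), and NRF1, nuclear respiratory factor 1 (0.13, SE 0.148), did not pass. SQSTM1 passed as lower with the length trend removed (-0.20, adjusted p = 0.0364) and with the replicate block (-0.17, adjusted p = 0.0468), and stood at 0.10 with total-count scaling. With total-count scaling CUL3 (0.37) and NRF1 (0.40) passed as higher, as did MAFF (0.58).

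**Figure D4:**
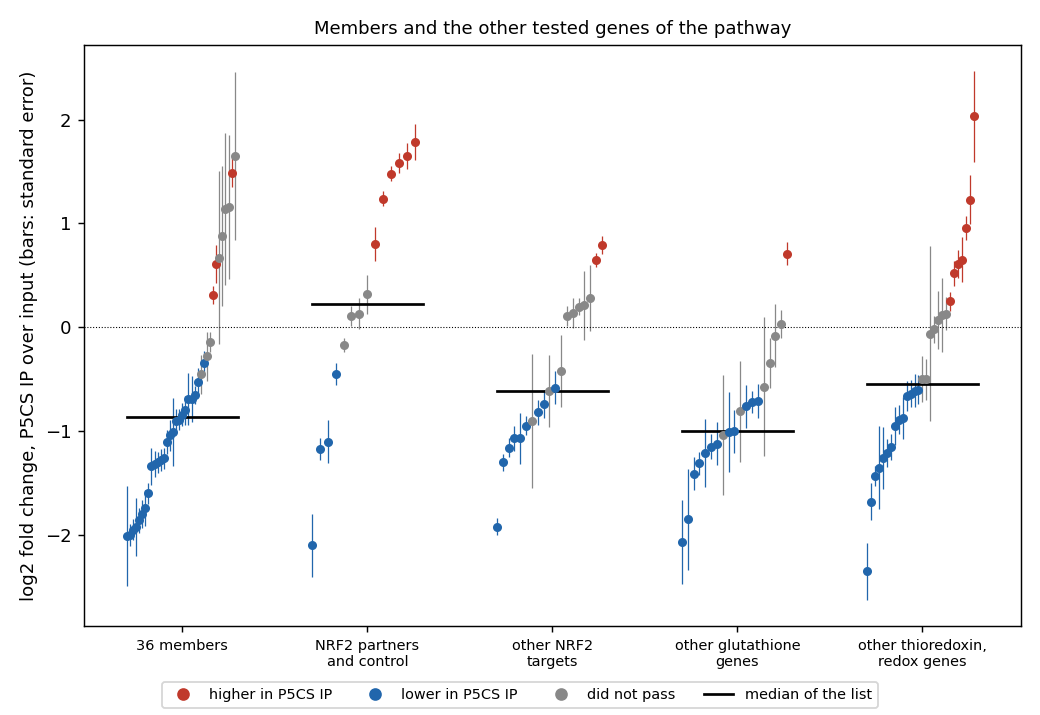
Log2 fold change of P5CS IP over input with bars of 1 standard error for the 36 members and for the tested genes of 4 further lists, coloured by call, with the median of each list as a black line. The list of NRF2 partners and controllers, which also holds nuclear respiratory factor 1, has a median of 0.22 and the members one of -0.86.

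Of 19 tested NRF2 targets beyond the members 9 were lower and 2 higher (median -0.61), of 19 glutathione genes 12 were lower and 1 higher (median -1.0), and of 28 thioredoxin and other redox genes 14 were lower and 7 higher (median -0.55). The lowest called gene was TXNDC17, a cytosolic thioredoxin-like protein (-2.35, SE 0.273), at 2.20 and 1.81 CPM in the P5CS IP and 9.04 and 11.4 CPM in the input. CHAC2, which degrades glutathione, was lower (-2.07, SE 0.405), as was FTL, the ferritin light chain and an NRF2 target (-1.92, SE 0.0806), at 88.2 and 87.8 CPM in the P5CS IP and 325 and 339.9 CPM in the input. The highest was TXNDC5, a protein disulphide isomerase of the endoplasmic reticulum (2.03, SE 0.437), whose P5CS IP libraries differed from each other, at 9.67 and 31.8 CPM, against 4.31 and 5.82 CPM in the input. Without P5CS IP library 1 TXNDC5 stood at 2.65 and without P5CS IP library 2 at 0.96, and it passed in both.

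The authors' deposited table, made from the same libraries, gave the same direction for all 28 called members. There, in the authors' deposited table, the pair of members GCLC (log2 fold change 1.51) and GCLM (0.63) carried the mark of enrichment, which 19.0% of all 21372 genes carried and which matched an unadjusted p under 0.05 with a fold above 1.5 in every gene. KEAP1 (0.33 in the authors' deposited table) fell short of that fold. With an adjusted p under 0.05 in the authors' deposited table, 3 members were higher and 21 lower.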

How the data were processed

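RIP-seq libraries of NCI-H1299 (2 P5CS IP, 2 input) came as 1 table. The authors deposited whole-number counts per gene, used as deposited, and FPKM, which per the file headers and values are those counts over gene length and library total. The quotient gave gene model lengths. Tools named in the submitters' processing notes are STAR 2.7.10a, fastp 0.23.2, DESeq2 and featureCounts, with the build hg38. The sources used here give neither annotation nor strand setting. The deposited comparison columns, per the file headers, hold a mean normalised signal, a log2 fold change with its standard error, a test score and p-values before and after adjustment. The count and FPKM column names contain Cyto, a word absent from the labels. Columns were matched to samples by replicate number and the word input. The design text speaks of LACE-seq with anti-IgG, and the sample titles were followed.

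After 1 repeated symbol was dropped, all 21372 genes were fitted with edgeR 4.0.16 under R 4.3.3 (TMM scaling, filterByExpr, glmQLFit and glmQLFTest, no covariate), which kept 17304 genes, with P5CS IP over input and Benjamini-Hochberg adjusted p under 0.05 called. CPM use TMM-scaled totals. A floor of 3 counts was 0.0647 to 0.0953 CPM over library totals without TMM scaling, covering counting error only. Replicates differed by more than sampling noise (chi-square per degree of freedom 19.9 between IP libraries and 18.9 between inputs). Alternatives were total-count and RLE scaling, DESeq2 1.42.0, no filter, a replicate block, removal of the loess trend on length and leaving out each library. All members are described. Of the other pathway genes the 4 highest and 4 lowest called were to be named. Members, lists and tests were chosen with earlier results of these data known. Gene spans and promoters are from RefSeq (GRCh38.p14), and all 36 members matched by identifier. A motif was searched in the 250 bases before each start listed in the promoter table, internal starts included.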

Additional observations from a re-analysis of the deposited data

How the results depend on the processing

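Of the 28 called members, 19 (18 lower, GCLC higher) kept their call under all 11 alternatives. The count of lower members was 25, ran from 20 to 24 with 1 library left out and stood at 20 with total-count scaling, 21 with DESeq2, 22 with the length trend removed and 25 with RLE factors or no filter. The count of higher members was 3 or 2 throughout. With DESeq2 the calls of CAT, GSTM3, MGST1 and AKR1B1 were lost. Where a library was left out, a group held 1 library, assumed to vary like the pair left in the other. Signs turned in 4 of 396 member values: AKR1B1 with the length trend removed (0.12, and 0.11 in that fit with the replicate block), TXNRD1 with total-count scaling (0.12) and OSGIN1 without the second P5CS IP library (0.06), which without the first passed as lower (-0.66). Of the genes named beside the members, whose alternatives were added after the data were seen, CUL3 turned with the length trend removed (-0.24 without and -0.24 with the replicate block), and SQSTM1 (0.10) and ALDH18A1 (0.07) turned with total-count scaling. The cause was not tested. Over all tested genes 4400 were higher and 4432 lower, against 5604 and 3223 with total-count scaling, where the median over all genes was 0.25 in place of -0.01. Deviations of libraries with the same replicate number were not correlated over the genes (0.000153), which cannot tell whether the libraries were paired. With the replicate block 3 members were higher and 25 lower. Genes near 1 CPM, such as PRDX2 and GPX1, are limited by depth.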
